A study of Mus musculus with 8 samples.

Results

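The renin-angiotensin system genes described here are 9 genes chosen by name from the 22609 genes of a kidney cortex RNA-Seq table: the enzyme renin (Ren1), its substrate angiotensinogen (Agt), angiotensin-converting enzyme (Ace), the angiotensin II type 1 receptors (Agtr1a and Agtr1b), the angiotensin-degrading peptidases aminopeptidase A (Enpep), aminopeptidase N (Anpep) and neprilysin (Mme), and the prorenin receptor (Atp6ap2). All 9 had a line in the table, and 7 of them passed the filter on low counts and were tested. RNA came from the kidney cortex of male C57BL6 mice that received no treatment, 4 aged mice of 30 months and 4 young mice of 5 months, with 1 library per mouse. The comparison asked which of these genes differed in level with age. The ages are those of the labels, and the methods of the study give an older mean age for the aged mice. The strain's substrain was not given. The p-values weigh the difference between the groups against the spread between mice. In the fitted models that spread was estimated from 4 mice per group, with information shared across genes, and it covers these mice only.

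Renin, released by the juxtaglomerular cells of the afferent arteriole, cuts angiotensinogen to angiotensin I. Angiotensin-converting enzyme, a membrane carboxypeptidase of endothelium and of the proximal tubule brush border, then makes angiotensin II, which acts on the type 1 receptor to constrict vessels and to promote sodium retention. Aminopeptidase A, aminopeptidase N and neprilysin trim the angiotensin peptides to products with other or lesser activity, and most of these peptidases are abundant on the proximal tubule brush border.

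Ace had the widest difference between the groups among the 7 genes tested. It was lower in each of the 4 aged mice than in any young mouse, with a mean at 0.344-fold of the young level in the fitted model, but 3 aged mice lay far below the young mice and the other one close to them. The difference did not pass the adjusted threshold in the test used here. Agt, Agtr1a, Enpep, Anpep and Mme overlapped between the groups, Atp6ap2 overlapped within a narrow range, and none of these 6 passed the test. Ren1 was listed at 0 in every library and Agtr1b was at or below 3 counts in every library, so neither could be compared.

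Each library held 14820804 to 19821429 read pairs assigned to genes, and a gene at the floor of 3 counts stood at 0.151 to 0.202 CPM, the count of a gene relative to its whole library, scaled here by the trimmed mean of M-values (TMM). Kidney markers were present in every library, such as Umod of the thick limb at 1119 CPM or more. Aged mouse 1 stood apart on the first principal component, at -71.5 against -16.3 to 26.2 for the other libraries. Slc14a2, a urea transporter of the inner medulla, was at 89.2 CPM in aged mouse 1 and at 26.7 CPM in young mouse 1, and at 0.327 CPM or less in the other 6 libraries. Of the 4 genes listed for the inner medulla, Aqp4 was also highest in both mice, at 187 and 54.9 CPM. Fxyd2 and Crym did not follow. In aged mouse 1 they were at 735 and 10.6 CPM, each the lowest of all libraries. The summed level of 8 markers of the first proximal tubule segments (S1 and S2) was 11711 CPM in aged mouse 1 and 21527 to 26162 CPM in the other 7 libraries. Their part in the results was not tested, and values without both mice numbered 1 are given for Ace, Agt, Enpep and Anpep. The summed level of 7 lymphocyte and plasma cell genes was 34.4 to 99.2 CPM in the aged mice, against 7.56 to 16.5 CPM in the young mice, and that of 7 macrophage genes was 222 to 361 CPM and 203 to 296 CPM. In every library Igj was the largest part of the first sum, at 31.1 to 96.5 CPM and 5.29 to 13.6 CPM. Cd74 was that of the macrophage sum, at 147 to 222 CPM and 107 to 152 CPM. Each sum is therefore mostly the level of 1 gene.

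Among all 13944 genes tested, 2.06% passed both thresholds used here, which were 0.05 for the adjusted p and 1.5 for the fold change (1.17% higher and 0.889% lower in the aged mice). None of the 7 renin-angiotensin genes tested passed them, and none passed the adjusted p alone, which 2.95% of all genes did. At an unadjusted p below 0.05, 1 of the 7 passed against 25.5% of all genes, and with DESeq2 and with limma-voom 1 of the 7 passed both thresholds against 6.26% and 3.46%. That gene was Ace in each case. The groups did not overlap for 1 of the 7, again Ace, against 18.9% of all genes. The median log2 fold change of the 7 genes was -0.10, and that of all genes was 0.03. In bulk tissue, fewer cells of a type and less RNA per cell cannot be told apart, which holds for every level given here.

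**Figure D1:**
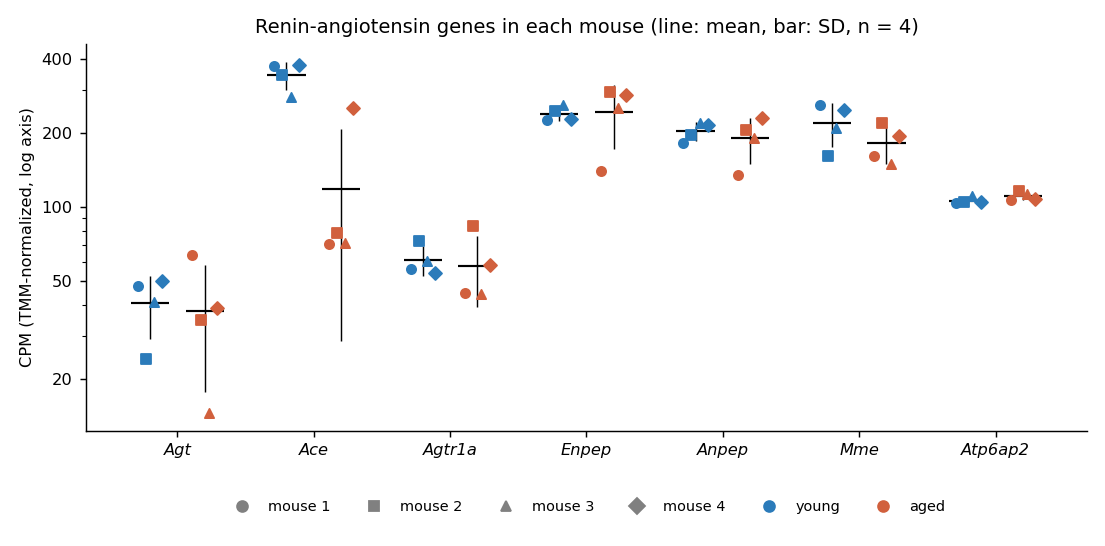
TMM-normalized CPM on a log axis for the 7 renin-angiotensin genes tested, with 1 point per mouse (blue young, orange aged, shape for the mouse number), a line for the mean and a bar for the SD of 4 mice. Ace is the gene whose groups do not overlap, and aged mouse 4 sits at 254 CPM, apart from the other 3 aged mice at 70.7 to 78.6 CPM.

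Renin and its substrate came first in the pathway. Ren1 (chromosome 1, positions 135247087 to 135256902 of mm9, plus strand) had a count of 0 in all 8 libraries. The table also held a line for Ren2, the duplicated renin gene that some mouse strains carry beside Ren1, and it too was 0 in all 8 libraries. The GENCODE annotation of mm9 names 1 gene Ren1 and 0 genes Ren2, and none of the 100-base windows of the Ren1 transcript had a copy elsewhere in that genome at 98% identity or more. Read pairs that overlapped more than one gene of the annotation used for counting were set aside as ambiguous, 98162 to 164747 per library, and were not given per gene. A level of renin could therefore not be taken from these counts, and the reason for the 0 was not tested.

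Markers listed for juxtaglomerular and mural cells were detected. The 7 genes of that list summed to 141 to 215 CPM in the aged mice, against 148 to 184 CPM in the young mice. None of the 7 passed the adjusted threshold. Rgs5, a pericyte regulator of G-protein signalling, had a log2 fold change of 0.69, and Notch3, a receptor of mural cells, had 0.53. Akr1b7, an aldose reductase-like enzyme known from renin-lineage cells, was the lowest at -0.65, with 1.23 to 1.76 CPM in the aged mice, against 1.73 to 2.99 CPM in the young mice. Pdgfrb, the platelet-derived growth factor receptor of pericytes, was at -0.17. At 59.3 to 103 CPM, Pdgfrb was the largest part of the sum in every library, and the sum therefore does not measure renin-making cells.

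Agt (chromosome 8, 127080434 to 127093606, minus strand) is the sole precursor of the angiotensin peptides and is made in the kidney by the proximal tubule. It was at 63.8, 34.7, 14.6 and 39.0 CPM in aged mice 1 to 4 and at 48.0, 24.1, 41.1 and 50.2 CPM in young mice 1 to 4. Aged mouse 1 held the highest value and aged mouse 3 the lowest, and the young mice lay between them. The means were 38.0 ± 20.2 CPM (SD, n = 4) and 40.9 ± 11.8 CPM (SD, n = 4). The log2 fold change was -0.10 (SE 0.39, adjusted p = 0.889, edgeR). The 95% interval of the fold ran from 0.504 to 1.72, so that folds within it, in either direction, were not excluded by these mice. The sign of the log2 fold change turned with the scaling: with library sizes alone it was 0.010. Without both mice numbered 1 it was -0.39 (adjusted p = 0.602, edgeR).

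Agt was set beside 5 genes of the S3 segment, the last part of the proximal tubule. Its level relative to their mean was 0.85, -0.89, -1.10 and -2.11 (log2) in the aged mice, against -3.17, -3.18, -2.74 and -3.08 in the young mice. Every aged mouse was above every young mouse. The difference was 2.23 on the log2 scale (two-sided exact permutation test, p = 0.0286, adjusted p = 0.0429 over 3 ratios), and this p is the smallest that 4 mice against 4 can give. The S3 list was chosen with earlier results of these data known, and all 5 of its genes were lower in the aged mice. The p of this ratio therefore does not measure a change of Agt. Agt on its own overlapped between the groups, and the summed S3 markers did not (595 to 2957 CPM in the aged and 3400 to 5044 CPM in the young mice).

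The genes whose centred log2 profile over the 8 libraries was most like that of Agt were P2rx5, an ATP-gated channel subunit, with a root mean square difference of 0.23, Frem2, an extracellular matrix protein, with 0.26, and 4833442J19Rik with 0.26. The profile of Agt itself had a root mean square of 0.63. None of these 3 genes passed the adjusted threshold between aged and young mice.

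Ace (chromosome 11, 105829259 to 105851278, plus strand) has 2 transcription starts in RefSeq, 7241 bases apart: an upstream one and one inside the gene, background knowledge being that the somatic enzyme with both catalytic domains starts at the first and the testis form at the second. The 250 bases before each start are shown because counts per gene do not separate transcripts from the 2 starts. They are from RefSeq on GRCm38.p6, plus strand, at chr11:105967698-105967947 and chr11:105974939-105975188, and capitals mark GC boxes (GGGCGG) and TATA boxes (TATAAA) found on either strand, overlapping matches included.
Ace upstream start: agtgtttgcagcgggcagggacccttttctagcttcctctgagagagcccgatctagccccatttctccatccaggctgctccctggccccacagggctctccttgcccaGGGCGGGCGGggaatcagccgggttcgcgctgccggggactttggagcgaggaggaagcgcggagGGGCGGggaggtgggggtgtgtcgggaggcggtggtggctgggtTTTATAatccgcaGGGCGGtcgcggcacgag
Ace internal start: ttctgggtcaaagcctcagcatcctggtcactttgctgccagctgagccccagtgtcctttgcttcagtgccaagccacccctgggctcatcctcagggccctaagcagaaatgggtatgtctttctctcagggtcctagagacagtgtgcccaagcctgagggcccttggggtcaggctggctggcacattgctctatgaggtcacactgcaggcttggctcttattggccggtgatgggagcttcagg
The first held 4 GC boxes and 1 TATA box, and the second held none of either in this window. Among 32851 mouse promoter windows, 32.7% held the GC box and 12.4% the TATA box. A promoter window was found for 8 of the 9 genes, and a match is a description of letters only.

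Ace was at 70.7, 78.6, 71.8 and 254 CPM in aged mice 1 to 4 and at 376, 345, 280 and 378 CPM in young mice 1 to 4. Aged mice 1, 2 and 3 were at 20.5%, 22.8% and 20.8% of the young mean, and aged mouse 4 was at 73.5% of it, just under the lowest young mouse. The means were 119 ± 90.0 CPM (SD, n = 4) and 345 ± 45.7 CPM (SD, n = 4), with a coefficient of variation of 75.9% in the aged and 13.2% in the young mice.

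The log2 fold change of Ace was -1.54 (SE 0.41, adjusted p = 0.0738, edgeR), and its 95% interval on the fold scale was 0.180 to 0.659 before any adjustment for the number of genes. Groups that did not overlap with the aged lower were found for 10% of all genes. The call rested on the tool and on 1 mouse. DESeq2 gave an adjusted p of 0.00210 and limma-voom with quality weights 0.0228. Without aged mouse 4 the log2 fold change was -2.23 (adjusted p = 5.08e-04, edgeR), and without both mice numbered 1 it was -1.31 (adjusted p = 0.172, edgeR).

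**Figure D2:**
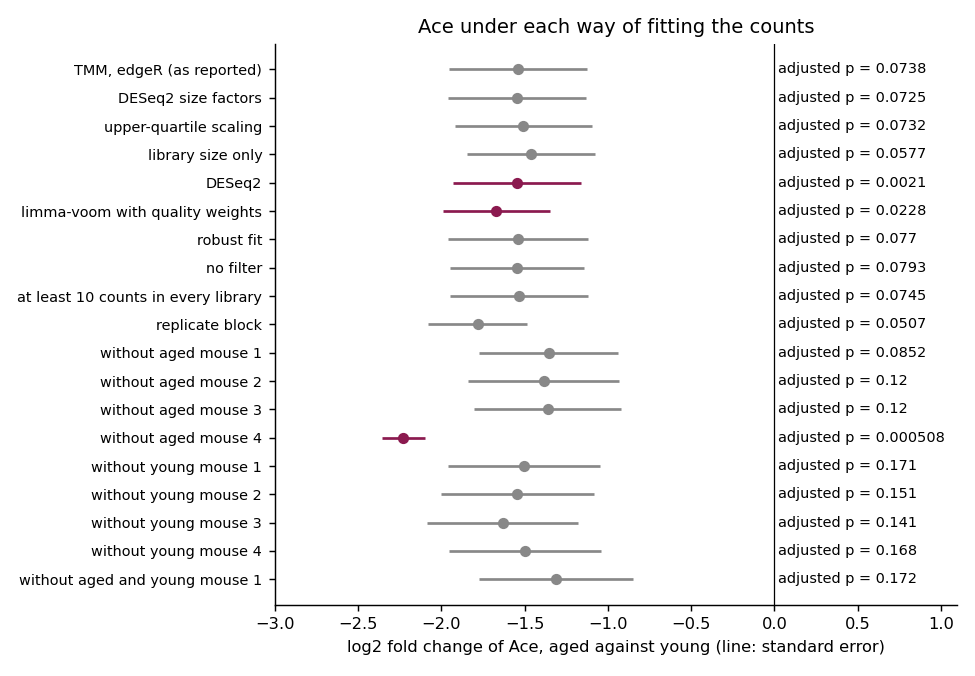
Log2 fold change of Ace, aged against young, as reported and under 18 other ways of fitting the counts (point, with its standard error as a line) and the adjusted p of each. All points lie between -2.23 and -1.31, and the 3 in dark red, DESeq2, limma-voom and the fit without aged mouse 4, are below an adjusted p of 0.05.

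Markers of the S3 segment were set beside Ace. The 5 S3 markers summed to 595, 1229, 873 and 2957 CPM in aged mice 1 to 4 and to 3400 to 5044 CPM in the young mice, so that aged mouse 4 was closest to the young mice here too. None of the 5 passed the adjusted threshold, and all 5 were lower in the aged mice at an unadjusted p below 0.05, as were 12.1% of all genes. Without aged mouse 4, 4 of the 5 passed the adjusted p of 0.05 (edgeR). In that fit 733 of 14066 genes passed both thresholds, against 287 of 13944 with all mice. These counts of all genes also require the fold change, which the count of S3 markers did not. The number of all genes past the adjusted p alone in that fit was not counted. With all mice the median log2 fold change of the 5 S3 markers was -1.91. Slc22a7, an organic anion transporter, was lowest at -4.02 (adjusted p = 0.0615, edgeR), followed by Cyp7b1, an oxysterol hydroxylase, at -2.92. Slc7a13, an amino acid transporter, was at -0.97 and Slc5a1, the sodium-glucose transporter SGLT1, at -0.62. Slc5a1 did not follow Ace among the aged mice, at 92.9 CPM in aged mouse 2 and 89.0 CPM in aged mouse 4. Atp11a, another S3 marker, made up 1733 CPM of the sum in aged mouse 4. Of 8 S1 and S2 markers, 1, Slc22a6, had aged mice all below the young mice, as had 10% of all genes. It was at 372, 768, 661 and 1186 CPM in the aged mice, against 1241 to 1484 CPM in the young mice. Ace relative to the mean of the S3 genes was 1.00, 0.28, 1.19 and 0.58 (log2) in the aged mice, against -0.21, 0.65, 0.03 and -0.16 in the young mice, and these ranges overlapped. The summed level of 8 endothelial markers was 535 to 751 CPM in the aged mice, against 623 to 671 CPM in the young mice. The part of S3 or endothelial content in the result on Ace was not tested.

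The genes with the profile most like that of Ace, named after the values were seen, were Agps, an enzyme of ether lipid synthesis, with a root mean square difference of 0.10 (log2, 8 libraries), Il34, a ligand of the macrophage receptor CSF1R, with 0.16, and Degs2, a sphingolipid hydroxylase, with 0.22. The profile of Ace had a root mean square of 1.05. Agps was at 132, 165, 141 and 471 CPM in the aged mice and at 863, 751, 597 and 815 CPM in the young mice. As with Ace, aged mouse 4 was the highest of the aged mice for all 3 genes. Their log2 fold changes were -1.74, -1.74 and -1.41, with adjusted p of 0.0546, 0.0659 and 0.0693 (edgeR). The likeness is a description over libraries that share depth and tissue content.

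**Figure D3:**
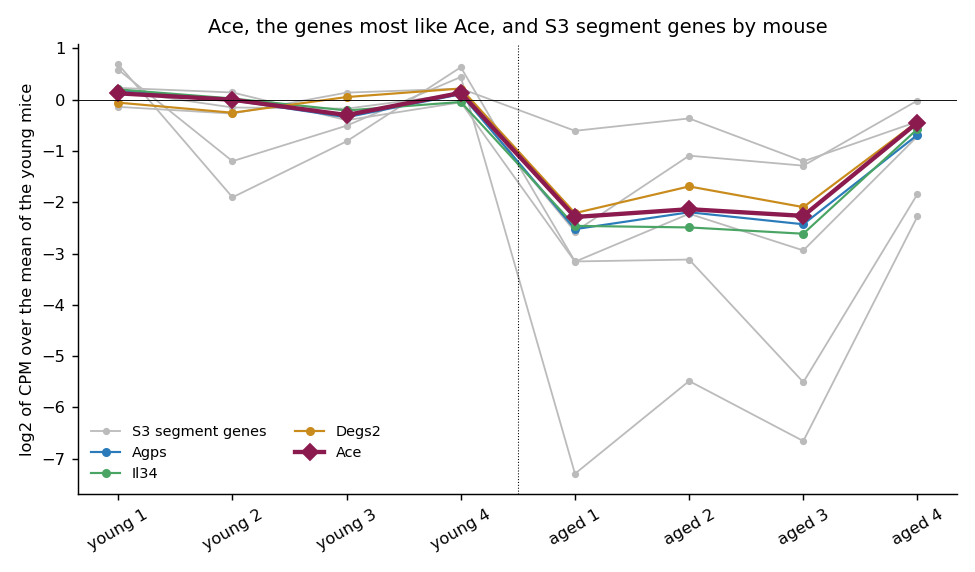
Log2 of CPM over the mean of the 4 young mice, for Ace, the 3 genes with the profile most like that of Ace, and 5 S3 segment genes, in each of the 8 mice (lines join the values of a gene and carry no order between mice). Ace and the genes like it are low in aged mice 1 to 3 and nearer the young level in aged mouse 4.

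The angiotensin II type 1 receptor exists as 2 closely related genes in the mouse. The first 120 coding bases of each are shown because reads can only be assigned to one of them where they differ. Sequences are GENCODE transcripts on NCBIM37 (mm9), in lower case with the bases that differ in capitals.
Agtr1a: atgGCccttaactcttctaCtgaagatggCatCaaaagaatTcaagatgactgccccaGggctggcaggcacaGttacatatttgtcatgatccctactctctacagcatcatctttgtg
Agtr1b: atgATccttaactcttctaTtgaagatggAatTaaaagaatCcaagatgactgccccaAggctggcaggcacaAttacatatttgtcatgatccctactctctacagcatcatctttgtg
The stretch holds 8 differences. Over the full coding sequence of 1080 bases, 99 bases differed (90.8% identity), the longest identical run was 66 bases, and the transcripts shared 0 windows of 100 bases.

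Agtr1a (chromosome 13, 30428310 to 30474736, plus strand), the main type 1 receptor of mouse kidney, was at 44.7, 83.8, 44.3 and 58.4 CPM in the aged mice, against 56.3, 73.2, 60.6 and 54.3 CPM in the young mice. The aged mice spread around the young mice in both directions. The means were 57.8 ± 18.6 CPM and 61.1 ± 8.52 CPM (SD, n = 4), and the fitted log2 fold change was -0.08 (SE 0.21, adjusted p = 0.822, edgeR) and a 95% interval of the fold from 0.685 to 1.30. Agtr1b (chromosome 3, 20213395 to 20266099, minus strand), the form known from adrenal and pituitary, had 1, 1, 2 and 0 counts in the aged mice, against 3, 0, 0 and 0 in the young mice. All 8 values were at or under the floor of 3 counts, and no fold is given. Of 5 genes listed for the adrenal cortex, Cyp11b1 and Cyp21a1 were at 0 in every library, and Cyp11b2 had 1 count, in young mouse 4. Hsd3b1 had 0 to 13 counts, the most in aged mouse 1, and Star had 15 to 59 counts.

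The gene of the prorenin receptor, Atp6ap2 (chromosome X, 12164927 to 12194175, plus strand), which is also an accessory subunit of the vacuolar proton pump, was the steadiest of the 7. It was at 107, 117, 113 and 108 CPM in the aged mice, against 104, 105, 111 and 105 CPM in the young mice. The log2 fold change was 0.06 (SE 0.07, adjusted p = 0.568, edgeR), and the 95% interval of the fold, 0.942 to 1.16, was the narrowest of the 7. Of the 100-base windows of its transcript, 2.34% had a copy elsewhere in mm9 at 98% identity or more.

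The 3 peptidases that degrade angiotensins did not pass the test. Enpep (chromosome 3, 128972093 to 129035638, minus strand), aminopeptidase A, which makes angiotensin III from angiotensin II, was at 141, 294, 253 and 285 CPM in the aged mice, against 225, 246, 259 and 228 CPM in the young mice. Aged mouse 1 was the lowest of all 8, and aged mice 2 and 4 were the highest. The means were 243 ± 70.7 CPM and 240 ± 15.8 CPM (SD, n = 4), and the fitted log2 fold change was 0.02 (SE 0.21, adjusted p = 0.953, edgeR). Without both mice numbered 1 it was 0.18 (adjusted p = 0.308, edgeR).

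Anpep (chromosome 7, 86966689 to 86993096, minus strand), aminopeptidase N, which acts on angiotensin III, was at 135, 205, 191 and 230 CPM in the aged mice, against 182, 197, 221 and 217 CPM in the young mice. Aged mouse 1 was again the lowest. The log2 fold change was -0.10 (SE 0.15, adjusted p = 0.705, edgeR), with a 95% interval of the fold from 0.733 to 1.19, and without both mice numbered 1 it was -0.017. The log2 ratio of Enpep to Anpep was 0.32 ± 0.20 in the aged and 0.23 ± 0.11 in the young mice (SD, n = 4), and the difference of 0.09 was within the spread (two-sided exact permutation test, p = 0.457, adjusted p = 0.457).

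Mme (chromosome 3, 63099794 to 63186153, plus strand), neprilysin, which cleaves angiotensin I and many other peptides, was at 161, 220, 150 and 196 CPM in the aged mice, against 260, 162, 210 and 249 CPM in the young mice. Aged mouse 3 was the lowest, and young mouse 2 lay among the aged mice. The means were 182 ± 32.1 CPM and 220 ± 44.8 CPM (SD, n = 4), and the fitted log2 fold change was -0.28 (SE 0.17, adjusted p = 0.336, edgeR) and a 95% interval of the fold from 0.629 to 1.08.

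The genes were also ordered by level per kilobase of exon. In the young mice Ace was the highest at 65.3 ± 8.64 CPM per kb (SD, n = 4), followed by Anpep at 52.6 ± 4.58, Enpep at 50.9 ± 3.36 and Mme at 50.3 ± 10.2, which lay within their spread of each other. Atp6ap2 was at 40.6 ± 1.22, and Agtr1a at 24.8 ± 3.45 and Agt at 21.6 ± 6.25 were the lowest and within their spread of each other. In the aged mice Ace was at 22.4 ± 17.0 CPM per kb, beside Agtr1a at 23.4 ± 7.52 and Agt at 20.1 ± 10.7, and Enpep at 51.7 ± 15.0 and Anpep at 49.1 ± 10.4 were the highest and within their spread of each other. The coefficient of variation was larger in the aged than in the young mice for 6 of the 7 genes, the exception being Mme at 17.6% and 20.3%. The share of all genes with a larger value in the aged mice was not counted, so this is not shown to be particular to these genes. On the first principal component of all genes tested, the aged libraries ran from -71.5 to 2.26 and the young from 21.6 to 26.2.

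**Figure D4:**
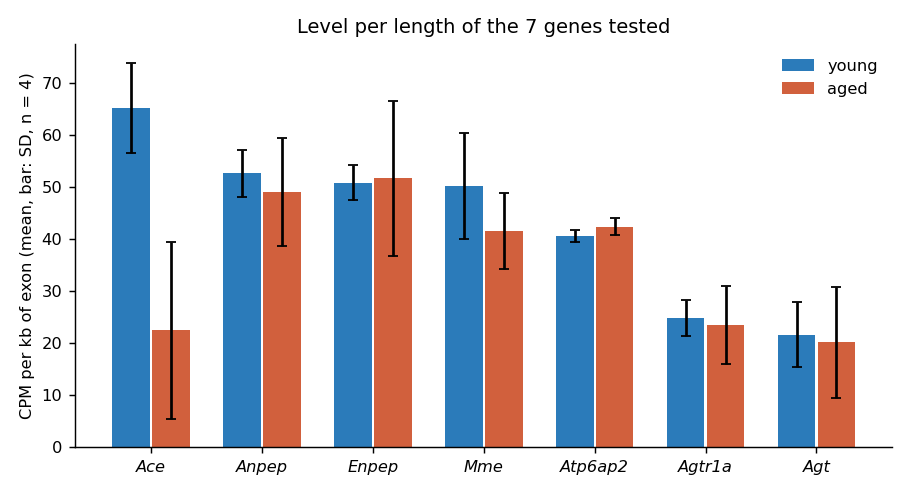
Mean CPM per kb of exon of the 7 genes tested in young (blue) and aged (orange) mice, with the SD of 4 mice as error bars, in order of the young level. Ace is the highest in the young mice at 65.3 and at 22.4 in the aged mice, where its error bar is among the widest.

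Of 20 other genes of the pathway, 14 were tested and none passed the adjusted threshold. At an unadjusted p below 0.05, 5 were lower and 0 higher, against 12.1% of all genes lower, and in 7 the aged mice were all below the young mice, as in 10% of all genes, and in 1 all above them, as in 8.85% of all genes. The median log2 fold change of the 14 was -0.19, against 0.03 for all genes. The lowest were Mas1, the receptor of angiotensin 1-7, at -0.94 (adjusted p = 0.263, edgeR) with under 2.2 CPM in every library, and Klk1, tissue kallikrein, a kinin-releasing protease of the distal nephron.

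Klk1 was at 451, 672, 938 and 862 CPM in the aged mice, against 1337, 1306, 1370 and 1157 CPM in the young mice. The groups did not overlap. Its log2 fold change was -0.82 (adjusted p = 0.0659, edgeR), and it passed both thresholds with DESeq2 (adjusted p = 0.00305), with limma-voom (adjusted p = 0.0225) and without aged mouse 1 or without aged mouse 4. Over all genes, 444 passed without aged mouse 1 and 733 without aged mouse 4, against 287 with all mice. Klk1 belongs to a family of related genes in the mouse, and whether reads were shared with its paralogs was not tested.

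Named after their values were seen, Rnpep, aminopeptidase B, was at -0.51 (adjusted p = 0.0549, edgeR), Agtrap, a protein that binds the type 1 receptor and promotes its internalisation, at -0.55 (adjusted p = 0.0657), and Nln, neurolysin, at -0.32 (adjusted p = 0.0672). Agtrap ran from 56.0 to 94.7 CPM in the aged mice and from 110 to 116 CPM in the young mice. Rnpep and Agtrap passed both thresholds without aged mouse 4, a fit in which 733 of 14066 genes did, against 287 of 13944 with all mice. The highest was Lnpep, insulin-regulated aminopeptidase and receptor of angiotensin IV, at 0.16 (adjusted p = 0.198, edgeR), with 227 to 249 CPM in the aged mice, against 207 to 216 CPM in the young mice. Of the 6 genes not tested, Mrgprd, a receptor of alamandine, and Ctsg, cathepsin G, were listed at 0 in every library.

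**Figure D5:**
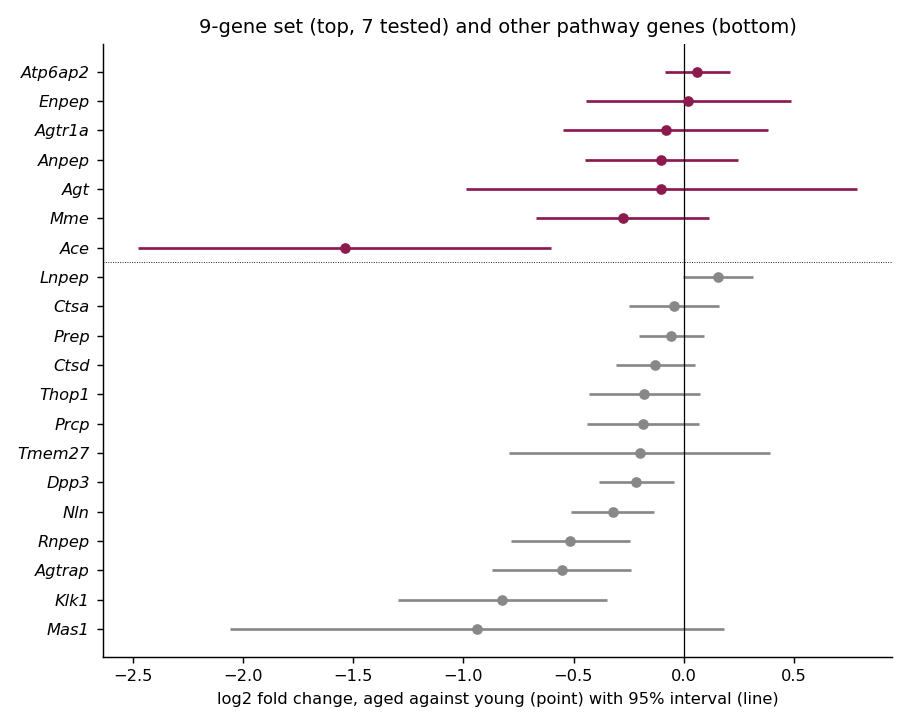
Log2 fold change, aged against young, of the 7 renin-angiotensin genes tested (top, dark red) and of other pathway genes (bottom, grey), with the 95% interval of each, not adjusted for the number of genes. Ace at -1.54 lies farthest from 0, 12 of the other genes lie below 0, and none of these genes passed the adjusted threshold.

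Other peptidases and related enzymes of the brush border gave a background for Ace, Enpep, Anpep and Mme. Of 8 genes listed 7 were tested, none passed the adjusted threshold, 4 were lower at an unadjusted p below 0.05, as were 12.1% of all genes, and the median log2 fold change was -0.71. Mep1b, the meprin beta subunit, was lowest at -2.10 (adjusted p = 0.0738, edgeR), with 7.48 to 72.9 CPM in the aged mice, against 99.7 to 225 CPM in the young mice. Acy3, an aminoacylase that acts on mercapturic acids, was at -1.86 (adjusted p = 0.0645), with 173, 574, 361 and 1083 CPM in the aged mice, against 1777 to 2252 CPM in the young mice. As with Ace, aged mouse 4 was the highest of the aged mice for both. Xpnpep2, aminopeptidase P, was at 0.42 and Dpp4, dipeptidyl peptidase 4, at 0.09.

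Among 19 genes known for the control of renin, 17 were tested, and 1 passed the adjusted p alone, which 1.44% of all genes did with a lower level in the aged mice. Nr1h3, the liver X receptor alpha, was at 22.9, 30.4, 28.0 and 26.5 CPM in the aged mice, against 37.7, 36.8, 38.2 and 41.0 CPM in the young mice. All 4 aged mice were below all 4 young mice. It fell by 0.51 on the log2 scale (SE 0.10, adjusted p = 0.0385, edgeR), which is under the fold threshold of 1.5. The others did not pass, with Casr, the calcium-sensing receptor, lowest of them at -0.33. Adora1, the adenosine A1 receptor, was the highest at 1.25, with 22.2 CPM in aged mouse 1 and 1.87 to 5.18 CPM in the other 7 libraries, and Crebbp, a transcriptional coactivator, was at 0.34.

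All 11 genes listed for signalling of the type 1 receptor were tested and none passed the adjusted threshold, with a median log2 fold change of 0.02. The highest were Arrb2, beta-arrestin 2, at 0.44 and Plcb4, a phospholipase C, at 0.35, the latter with 31.3 CPM in aged mouse 1 and 11.2 to 16.4 CPM in the other 7 libraries. The lowest were Arrb1, beta-arrestin 1, at -0.14 and Plcb1, another phospholipase C, at -0.12. Among the cell type lists, the genes past the adjusted p were Csf1r, the macrophage colony-stimulating factor receptor, which fell by 1.00 on the log2 scale (adjusted p = 0.0472, edgeR), and Igj, the immunoglobulin joining chain of plasma cells, which rose by 2.65 (adjusted p = 0.0311, edgeR). The other 6 macrophage genes tested did not pass and had log2 fold changes of 0.13 to 0.79, and the median of the macrophage list was 0.48.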

How the data were processed

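Per the labels and the methods of the study, total RNA of the kidney cortex was depleted of ribosomal RNA and made into stranded libraries, sequenced in pairs on an Illumina instrument, aligned by the authors to mm9 with TopHat2 and counted per RefSeq gene with HTSeq on the reverse strand. The submitters' processing notes also name CASAVA 1.8.2 and SAMtools. The deposited values are raw counts of read pairs per gene. The joint table and the tables of single libraries were identical (0 of 180912 values differed), and the joint table was used. The 5 lines that name no gene were left out of library sizes; of all pairs listed, 20.0% to 29.9% fell on no gene, 34.3% to 39.1% were not uniquely aligned and 0.231% to 0.346% were ambiguous. Pairs that align equally well to close copies of a gene are not in its count.

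Counts were filtered (filterByExpr, minimum count 10), scaled by TMM and fitted with edgeR 4.0.16 (quasi-likelihood, aged against young) in R 4.3.3 over 13944 genes with Benjamini-Hochberg adjustment. CPM are TMM-scaled. Other fits used DESeq2 1.42.0, limma 3.58.1 (voom with quality weights), other scalings, filters, a replicate block and each mouse left out. The fit was tested on simulated data. Ratios (log2 CPM, prior count 2) were compared by the exact permutation test over 70 orders. A ratio of Ren1 to juxtaglomerular genes had been planned and could not be computed, as Ren1 was at 0, so that adjustment was over 3 ratios, 1 of which is not reported here. Positions are from GENCODE for mm9, copies were searched with BLAST 2.17.0, and promoters are from RefSeq on GRCm38.p6.

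The 9 genes and all lists were chosen with earlier results of these data known. Named were the 9 genes, genes of other lists past the adjusted p, the 2 highest and 2 lowest log2 fold changes of each pathway list and of the juxtaglomerular and S3 lists, and the 3 profiles most like Agt. Atp11a, Slc22a6 and the genes of the adrenal cortex and inner medulla lists were named after their values were seen. The other extremes of the remaining cell type lists are not named for their fold change. Of the other cell type lists (smooth muscle, S1 and S2, podocyte, endothelium, thick limb, distal convoluted tubule, collecting duct, mast cell, adrenal cortex, inner medulla), 0 genes passed the adjusted p.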

Additional observations from a re-analysis of the deposited data

Results flagged for a closer look

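Among the aged mice, the gap between Ace in aged mouse 4 and the nearest other aged mouse took up 0.957 of the whole range of the group, above Dixon's critical value for 4 samples. In this search, 64 sets of 4 values were looked at and 1 was past the limit, where chance gives 3.2. Ace was at 254 CPM in that mouse and at 70.7 to 78.6 CPM in the other 3 aged mice. The summed S3 markers were 2957 CPM in the same mouse and 595 to 1229 CPM in the other aged mice. Their part in the value of Ace was not tested.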

How the results depend on the processing

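With 287 genes past both thresholds in the fit used here, the count was 488 with library sizes alone, 873 with DESeq2, 483 with limma-voom, 51 without both mice numbered 1 (chosen after seeing the data) and 8 to 733 with 1 mouse left out, the lowest without young mouse 1 and the highest without aged mouse 4. With library sizes alone the median of all genes shifted by 0.11 (log2) and 75.4% of the calls were higher in the aged mice, against 56.8%; with upper-quartile scaling 65.3% and with limma-voom 49.3% were. The number of renin-angiotensin genes passing was 1 with DESeq2 and 1 with limma-voom against 0, and 0 to 1 with 1 mouse left out, Ace in each case, without aged mouse 4. That of the 20 other pathway genes was 1 with DESeq2 and 1 with limma-voom against 0, and 0 to 3 with 1 mouse left out. The causes were not tested.

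Values near 0 turned in sign, and none of these passed the threshold. With library sizes alone the log2 fold change was 0.010 for Agt, 0.024 for Agtr1a and 0.0026 for Anpep. With 1 mouse left out it ran from -0.47 to 0.17 for Agt, -0.32 to 0.025 for Agtr1a, -0.082 to 0.21 for Enpep and -0.21 to 0.033 for Anpep. Ace ran from -2.23 to -1.36 and kept its direction in all 18 alternatives, as did Mme and Atp6ap2. The ratios given kept their direction with each mouse left out and under the other prior count of 0.5.

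Mice that share a number had correlations of their deviations of -0.03 to 0.206, so the numbers were not taken to pair the mice. For numbers 1, 2 and 3 this correlation was above the highest with another number. The values were 0.206 against 0.0998, 0.0380 against 0.0295 and 0.199 against 0.165. Number 4 was at -0.03 against 0.0569. With the number as a replicate block, 130 genes passed, no renin-angiotensin gene did, the adjusted p of Ace was 0.0507 and the log2 fold change of Enpep was -0.031. Counts at the floor kept Agtr1b out of every test except the fit with no filter on low counts, where its adjusted p was 0.928, and 4 mice per group limit the other genes to intervals such as that of Agt.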
